A study of Mus musculus with 4 samples.

Results

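The genes described here mark the contractile and vessel-wrapping cells of the skin. They are Acta2, Tagln, Myh11, Cnn1, Actg2, Mylk, Smtn and Lmod1, which build or regulate the smooth muscle contractile apparatus, and Rgs5 and Notch3, which mark pericytes and other mural cells. They were taken by gene symbol from the deposited gene table, which held all 10 of them among 24441 genes. Skin RNA was sequenced in 4 libraries. The 2 WT libraries are labelled as skin of female C57BL/6 wild type mice. The 2 GSDMD KO libraries are labelled as skin of female GSDMD-/- mice of the same strain, a commercially obtained line made by injecting Cas9 and guide RNA into fertilised C57BL/6 eggs. Both groups received bleomycin (BLM), a drug whose repeated injection makes mouse skin fibrotic, under the back skin every other day for 28 days, and the labels give an age of 8 weeks. No library of saline-treated skin was analysed here, so each comparison is between KO and WT under BLM. The labels do not say whether the libraries of a group came from separate animals, and the p-values therefore measure only the spread between these libraries, which may be technical.

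Smooth muscle cells contract when myosin light chain kinase, the product of Mylk, phosphorylates the light chain of the Myh11 motor, which then pulls on filaments of the actins encoded by Acta2 and Actg2. Fibroblasts that take on a contractile phenotype in wounds and fibrosis, called myofibroblasts, are recognised by alpha-smooth muscle actin, the product of Acta2, in stress fibres. Many genes of this apparatus are controlled by serum response factor, which binds CArG boxes in their promoters together with myocardin or related cofactors. In normal skin the same genes are used by arterioles and by the arrector pili muscles of the hairs, and pericytes wrap the capillaries.

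The Acta2 promoter is shown because Acta2 is the member whose KO and WT libraries stood furthest apart on the log2 scale. The RefSeq promoter table had an entry for 7 of the 10 members, and each of the 7 sequences of 250 bases before the start was found once in mm9. No promoter is shown for Tagln, Myh11 and Actg2. Acta2 lies on the minus strand of chromosome 19, from 34314826 to 34329863 in mm9, with 9 exons in its longest transcript. In the promoter below, chr19:34329864-34330113, read 5′ to 3′ along the minus strand, the capitals mark the reverse complement of the MCAT letters CATTCC and 2 matches to the CArG box that hold 1 other base inside.
Acta2: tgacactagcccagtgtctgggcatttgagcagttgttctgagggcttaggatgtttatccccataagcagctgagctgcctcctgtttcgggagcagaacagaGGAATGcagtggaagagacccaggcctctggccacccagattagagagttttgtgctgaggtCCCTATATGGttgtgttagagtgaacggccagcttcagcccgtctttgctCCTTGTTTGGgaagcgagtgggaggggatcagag

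The MCAT match of Acta2 spans positions -146 to -141 from the start, and the CArG-like matches span -84 to -75 and -34 to -25. Over both strands of all 32851 RefSeq promoters of the same length, 8.59% held a CArG box with at most 1 other base inside. This share includes exact boxes, and among the members only the promoter of Acta2 held such a match. An exact CArG box was found in 0 of the 7 member promoters and in 1.47% of all promoters, and the letters TATAAA in 0 of 7 and in 12.4%. CATTCC or its reverse complement was found in 4 of the 7, against 12.6% of all promoters. The other 3 are shown as windows of 60 bases with the motif in capitals, for Lmod1 at chr1:137221233-137221292 on the plus strand, for Smtn at chr11:3439485-3439544 on the minus strand and for Mylk at chr16:34784851-34784910 on the plus strand.
Lmod1: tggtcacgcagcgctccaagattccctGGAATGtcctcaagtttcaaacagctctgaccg
Smtn: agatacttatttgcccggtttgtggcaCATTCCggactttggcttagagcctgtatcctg
Mylk: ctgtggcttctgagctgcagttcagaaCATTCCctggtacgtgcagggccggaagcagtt
These matches describe letters within the windows and say nothing of binding.

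Values were given as FPKM (fragments scaled by transcript length and library depth), which allows levels to be compared between genes. The spacing of low FPKM values shows what a single fragment adds, and this spacing puts the depth of the libraries between 12800000 and 17500000 fragments. By that estimate at least 254 fragments lay behind each value of Acta2, while the thinnest values rested on 27.7 fragments for Actg2 and 35.0 for Cnn1. Gsdmd itself stood at 14.0 and 18.2 FPKM in WT skin, against 3.53 and 2.26 FPKM in the KO libraries, lower in both KO libraries as labelled (log2 fold change -2.14 ± 0.29 SE, limma adjusted p = 0.248). KO replicate 2 stood apart. All 12 fibroblast markers and all 12 endothelial markers were lowest there, at a median of 0.107 and 0.128 times the WT mean, none of them at 0, and 4 of 40 genes of the Y chromosome were above 0 in this library alone, together at 1.78 FPKM, which goes against its label as female. KO replicate 1 carried hair follicle markers at a summed 387 FPKM, against 1.02 to 11.5 FPKM in the other libraries. Acta2, Tagln, Cnn1, Rgs5 and Notch3 are therefore also described without each KO library. Epidermal keratin Krt5 was high in every library, from 764 to 1730 FPKM, and skeletal muscle genes of the skin's muscle layer summed to between 21300 and 35400 FPKM.

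None of the 10 members was called by limma, a call needing a Benjamini-Hochberg adjusted p under 0.05 together with a log2 fold change beyond 1 in size, and none had an unadjusted p under 0.05. Over all 13027 tested genes the first rule called 0, or 0.0%, while an unadjusted p under 0.05 was reached by 6.22% as lower and 10.9% as higher in KO. All 10 members passed the filter of at least 1 FPKM in at least 2 libraries. The fitted log2 fold change was below 0 for 4 members and above 0 for 6, with a median of 0.05 beside 0.11 over all tested genes. Leaving out KO replicate 1 moved the median of the members to -0.42, with 8 lower and 2 higher. Leaving out KO replicate 2 moved it to 0.45, with 1 lower and 9 higher. The KO libraries both lay under the WT libraries for 1 member, Acta2, against 20.5% of all tested genes. Both lay above for 2 members, Cnn1 and Notch3, against 35.3% of all tested genes. Neither share of the members exceeds that of the whole table. With 2 libraries a group, the two-sided exact permutation test on any 1 value cannot go below p = 0.333.

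For most members the KO libraries lay at the ends of the range. KO replicate 1 was the highest of the 4 libraries for 8 of 10 members, against 18.9% of all tested genes, and KO replicate 2 was the lowest for 8 of 10, against 33.3%. This pattern was not particular to the members, since 11 of the 12 fibroblast markers were highest in KO replicate 1 and 12 of 12 lowest in KO replicate 2. The exceptions at the top were Acta2, highest in WT replicate 1, and Tagln, highest in WT replicate 2. At the bottom they were Cnn1 and Notch3, both lowest in WT replicate 1. The summed FPKM of the 10 members was 170 and 165 in the WT libraries, 180 in KO replicate 1 and 62.9 in KO replicate 2. In bulk skin, fewer cells of a type and less RNA per cell cannot be told apart.

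**Figure D1:**
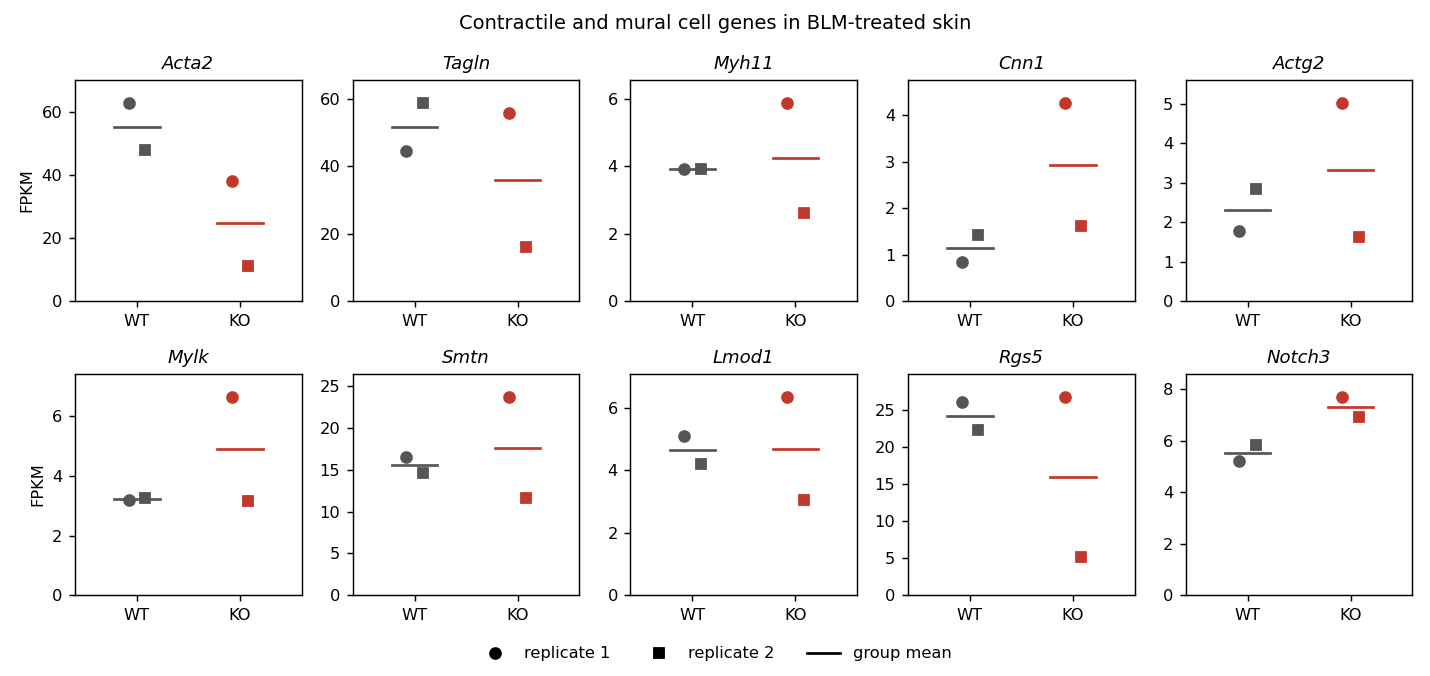
FPKM of each of the 10 genes (vertical axis, starting at 0, own scale in each panel) in the 2 WT and 2 KO libraries, with circles for replicate 1, squares for replicate 2 and lines for the group means. KO replicate 1 is the highest point in 8 panels and KO replicate 2 the lowest in 8, and only in the Acta2 panel do both KO points lie below both WT points.

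Acta2, the actin of vascular smooth muscle and of myofibroblasts, stood at 62.8 and 48.0 FPKM in the WT libraries and at 38.3 and 11.1 FPKM in the KO libraries. Each KO library was thus lower than each WT library, at 0.691 and 0.201 times the WT mean. The group means were 55.4 ± 10.5 FPKM in WT and 24.7 ± 19.2 FPKM in KO (SD, n = 2), a log2 fold change of -1.36 ± 0.59 SE with a 95% confidence interval of -2.85 to 0.14. The difference did not pass the threshold (limma adjusted p = 0.314). The KO values differ from each other by more than the WT mean differs from KO replicate 1, and without KO replicate 2 the log2 fold change was -0.51 (limma adjusted p = 0.658). Without KO replicate 1 it was -2.20 (limma adjusted p = 0.0059), in a fit where the lone KO library was assumed to vary like the WT libraries.

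Actg2, the gamma actin best known from the smooth muscle of gut and bladder, lies on chromosome 6, from 83462903 to 83486245 on the minus strand, and was present at a far lower level. It stood at 1.78 and 2.84 in WT, against 5.01 and 1.62 FPKM in KO, so the KO libraries lay on both sides of the WT range (log2 fold change 0.28 ± 0.46 SE, limma adjusted p = 0.755). The level of Actg2 as a share of Acta2 was 2.84% and 5.93% in WT and 13.1% and 14.5% in KO. These shares were higher in both KO libraries, where Acta2 itself was lower, and they were not tested. In KO replicate 2 the share rested on an estimated 27.7 fragments of Actg2.

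The actin genes are so alike that reads could in principle be assigned to the wrong member, and a stretch of their coding sequence is shown for that reason. Over the last 1110 coding bases, counted back from the stop codon, Acta2 was 84.4% identical to Actg2, with 173 differing bases and a longest identical run of 29 bases. None of the 1732 windows of 50 bases in the Acta2 transcript occurred in Acta1, Actb, Actc1 or Actg2, and 7 occurred in Actg1. None of the 1284 windows in Actg2 occurred in another actin. The lines below give coding bases 570 to 659 of Acta2 and the matching bases 567 to 656 of Actg2 from the mm9 transcripts, 5′ to 3′, with capitals where Actg2 differs from Acta2.
Acta2: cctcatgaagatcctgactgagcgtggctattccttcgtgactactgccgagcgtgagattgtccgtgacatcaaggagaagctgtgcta
Actg2: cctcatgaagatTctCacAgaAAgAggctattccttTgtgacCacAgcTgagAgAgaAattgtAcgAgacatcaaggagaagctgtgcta
In these 90 bases 15 differ in Actg2.

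Acta2 was a small part of the actin RNA of this skin. Of the summed FPKM of 6 actin genes it made up 0.778% and 0.532% in WT and 0.614% and 0.236% in KO, and these shares overlapped between the groups. Acta1, the skeletal muscle actin, which the muscle layer of the skin expresses, held 6710 and 7680 in WT, against 5030 and 3730 FPKM in KO, lower in both KO libraries (log2 fold change -0.73 ± 0.30 SE, limma adjusted p = 0.302). Actc1, the cardiac actin, which immature and regenerating skeletal muscle also expresses, stood at 204 and 124 in WT, against 55.6 and 25.4 FPKM in KO, with a log2 fold change of -2.05 ± 0.47 SE (limma adjusted p = 0.248). Of the cytoplasmic actins, Actb differed by -0.30 on the log2 scale and Actg1 by 0.12. Among the 6 genes, Actc1 alone had an unadjusted p under 0.05, beside 6.22% of all tested genes as lower and 10.9% as higher. All 14 skeletal muscle markers, a list that holds Acta1 itself, were fitted lower in KO. Their median was 0.621 times the WT mean in KO replicate 1 and 0.579 in KO replicate 2, with none at 0. Their part in the actin values was not tested.

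Tagln encodes transgelin, an actin-binding protein of smooth muscle and an early marker of its differentiation. It lies on the minus strand of chromosome 9, from 45737711 to 45744141, and shares 65 exonic bases with Pcsk7 on the other strand. Its level was 44.6 and 58.7 in WT, against 55.9 and 16.0 FPKM in KO. KO replicate 1 lay inside the WT range and KO replicate 2 stood at 0.31 times the WT mean, a log2 fold change of -0.75 ± 0.60 SE with a 95% interval of -2.28 to 0.79 (limma adjusted p = 0.517). The direction rested on that library, since leaving it out gave a log2 fold change of 0.12 and leaving out KO replicate 1 gave -1.62.

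Cnn1 encodes calponin, which binds actin and damps the myosin motor, and lies on the plus strand of chromosome 9, from 21903697 to 21913665. Its level was 0.843 and 1.43 in WT, against 4.25 and 1.61 FPKM in KO. Both KO libraries were above both WT libraries, at 3.75 and 1.42 times the WT mean, but the nearest WT and KO libraries differed by less than the WT libraries did. The log2 fold change was 0.81 ± 0.41 SE with a 95% interval of -0.24 to 1.86 (limma adjusted p = 0.359). Leaving out KO replicate 1 gave 0.30, and leaving out KO replicate 2 gave 1.31. Cnn1 was the lowest of the 10 genes in every library.

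Smtn encodes smoothelin, a cytoskeletal protein of contractile smooth muscle, and was the most strongly expressed of the remaining contractile genes. It stood at 16.6 and 14.6 in WT, against 23.7 and 11.6 FPKM in KO. The KO libraries lay on both sides of the WT range, and the fitted difference was 0.09 ± 0.38 SE on the log2 scale, which other scalings of the libraries turned slightly negative. Smtn lies on the minus strand of chromosome 11, from 3417525 to 3439295. Its exons share 714 bases with Gm11946 on the opposite strand, and no source used here says whether counting used the strand. Without it, reads of such overlapping genes cannot be told apart.

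Lmod1, on the plus strand of chromosome 1 from 137221390 to 137264642, encodes leiomodin, which starts new actin filaments in smooth muscle. It stood at 5.10 and 4.21 in WT, against 6.33 and 3.05 FPKM in KO, a log2 fold change of -0.05 ± 0.36 SE. The genes of the motor and of its switch, like Lmod1, had KO libraries on both sides of the WT libraries. Myh11, the smooth muscle myosin heavy chain and the member most restricted to mature smooth muscle, stood at 3.94 and 3.92 in WT, against 5.87 and 2.61 FPKM in KO. The WT libraries were nearly equal and the KO libraries lay above and below them, at 1.49 and 0.665 times the WT mean, which gave a log2 fold change of 0.02 ± 0.37 SE with a 95% interval of -0.93 to 0.96, slightly below 0 under other scalings. Mylk stood at 3.20 and 3.25 in WT, against 6.64 and 3.16 FPKM in KO. KO replicate 1 thus held 2.06 times the WT mean of Mylk and KO replicate 2 held 0.981 times, for a log2 fold change of 0.42 ± 0.36 SE (limma adjusted p = 0.542). Both genes lie on chromosome 16, Myh11 on the minus strand from 14194620 to 14291501 with 42 exons, and Mylk on the plus strand from 34785036 to 35002520 with 32.

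Rgs5 encodes a regulator of G protein signalling and is among the most used pericyte markers, and it lies on the plus strand of chromosome 1, from 171585632 to 171625944. It stood at 26.1 and 22.3 in WT, against 26.7 and 5.16 FPKM in KO. KO replicate 1 was just above the WT range and KO replicate 2 at 0.213 times the WT mean, so the log2 fold change of -0.95 ± 0.72 SE had a 95% interval of -2.78 to 0.88 (limma adjusted p = 0.494). Leaving out KO replicate 2 gave a log2 fold change of 0.14, and leaving out KO replicate 1 gave -2.03. Without KO replicate 1 the limma threshold was passed by 3 members, Acta2, Tagln and Rgs5, all lower, in a fit that called 9.2% of all tested genes as lower. Without KO replicate 2 hardly any gene of the whole table passed the threshold, so that fit cannot set the members apart from other genes.

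Notch3 encodes the Notch receptor of mural cells, which vascular smooth muscle and pericytes need for their maturation and which binds Jagged ligands on neighbouring cells. It was the member with the steadiest values, at 5.21 and 5.84 in WT, against 7.68 and 6.91 FPKM in KO. Both KO libraries were above both WT libraries, at 1.39 and 1.25 times the WT mean. The log2 fold change was 0.35 ± 0.24 SE with a 95% interval of -0.26 to 0.95, and it did not pass the threshold (limma adjusted p = 0.458). It was 0.28 with KO replicate 1 left out and 0.41 with KO replicate 2 left out. The ratio of Notch3 to Rgs5 was 0.20 and 0.261 in WT and 0.288 in KO replicate 1, but 1.34 in KO replicate 2. Notch3 lies on the minus strand of chromosome 17, from 32257838 to 32303797, and its exons share 488 bases with Gm17276 on the opposite strand.

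**Figure D2:**
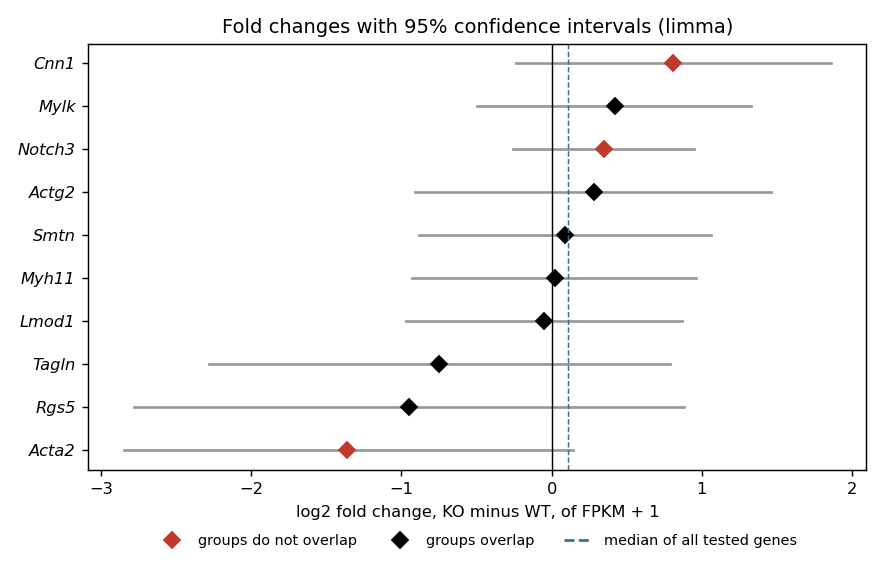
Log2 fold change of FPKM + 1, KO minus WT (horizontal axis), for the 10 genes, as diamonds with 95% confidence intervals from limma. All 10 intervals include 0, red diamonds mark the 3 genes whose KO and WT libraries do not overlap, and the dashed line marks the median of all tested genes at 0.11.

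The members can also be compared with each other inside a library, which removes any factor that scales all of them. Relative to the geometric mean of the 6 lower contractile genes (Myh11, Cnn1, Actg2, Mylk, Smtn and Lmod1), Acta2 stood at 18.4 and 12.5 in WT and at 5.42 and 3.69 in KO. On the same scale Tagln stood at 13.1 and 15.3 in WT and at 7.91 and 5.30 in KO. Rgs5 stood at 7.62 and 5.83 in WT and at 3.77 and 1.71 in KO. All 3 ratios were lower in both KO libraries than in both WT libraries. The geometric mean of the 6 genes was 3.42 and 3.83 FPKM in WT, 7.07 FPKM in KO replicate 1 and 3.02 FPKM in KO replicate 2. In KO replicate 1 the lower ratios of Tagln and Rgs5 thus went with a higher denominator alone, and that of Acta2 with a lower numerator as well. In KO replicate 2 all 3 numerators were lower than in WT. These ratios were chosen after the values had been seen and were not tested. The ratio of Acta2 to Tagln was 1.41 and 0.817 in WT and 0.685 and 0.696 in KO. The ratio of Acta2 to Myh11 was 16.0 and 12.2 in WT and 6.53 and 4.27 in KO. Both of these ratios were lower in each KO library than in each WT library. Acta2 itself was lower in each KO library, so they add no separate evidence, and they were not tested either.

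**Figure D3:**
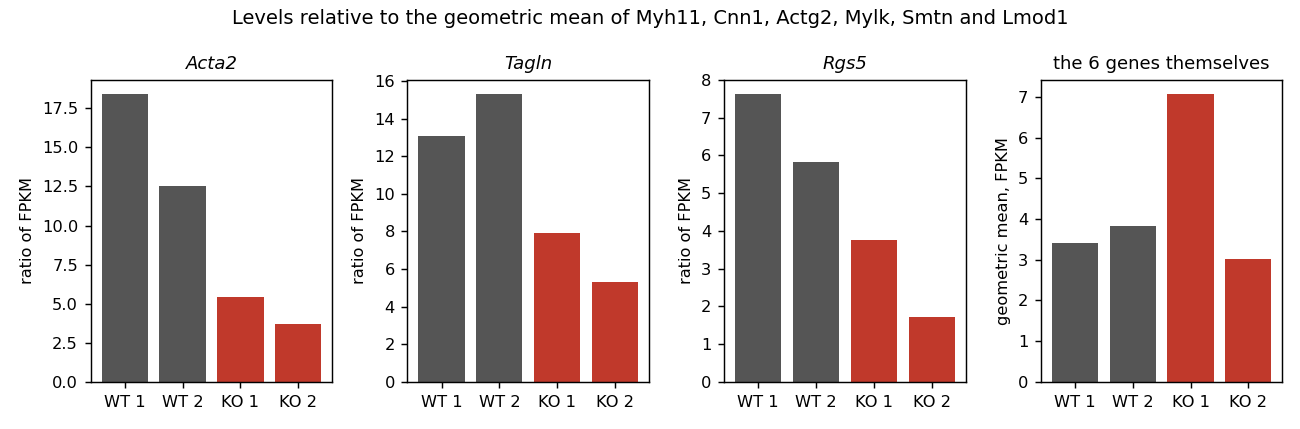
FPKM of Acta2, Tagln and Rgs5 divided by the geometric mean of 6 lower contractile genes, and that geometric mean in FPKM (vertical axes, starting at 0), in each of the 4 libraries. Each ratio is lower in both KO libraries (red) than in both WT libraries (grey), while the geometric mean is highest in KO replicate 1, at 7.07 FPKM.

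By mean level over the 4 libraries the order was Tagln at 43.8, Acta2 at 40.1, Rgs5 at 20.1, Smtn at 16.6, Notch3 at 6.41, Lmod1 at 4.67, Myh11 at 4.08, Mylk at 4.06, Actg2 at 2.81 and Cnn1 at 2.03 FPKM. The first place of Tagln depends on the KO libraries, since in WT the mean of Acta2 was the higher, at 55.4 against 51.7 FPKM, and Acta2 was first in WT replicate 1. Among neighbours in the order only Smtn and Notch3 had ranges that did not overlap. The first 4 places held Tagln, Acta2, Rgs5 and Smtn in each library other than KO replicate 2. In KO replicate 2 Smtn was second to Tagln and Rgs5 had dropped to place 5, below Notch3.

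Markers of other cell types also differed between the libraries. The 12 fibroblast markers summed to 452 and 327 FPKM in WT, 722 FPKM in KO replicate 1 and 70.2 FPKM in KO replicate 2. For the 12 endothelial markers the sums were 139 and 216 in WT, against 185 and 26.8 FPKM in KO. The mean log2 level of the 10 members differed by -0.11 between KO and WT. Relative to the mean log2 level of the fibroblast markers, the members stood at -1.55 and -0.96 in WT, -1.70 in KO replicate 1 and 0.44 in KO replicate 2. The group difference of 0.62 on that scale came from KO replicate 2, and it was -0.45 with that library left out. Relative to the endothelial markers the members stood at -0.05 and -0.53 in WT, 0.09 in KO replicate 1 and 1.22 in KO replicate 2. That difference was 0.94, and 0.38 with KO replicate 2 left out. In KO replicate 2 the median member stood at 0.683 times the WT mean, above the medians of the fibroblast and endothelial lists. Epidermal keratinocyte markers were at a median of 2.41 and 2.19 times the WT mean in the KO libraries. The part of these shifts in the members' values was not tested.

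**Figure D4:**
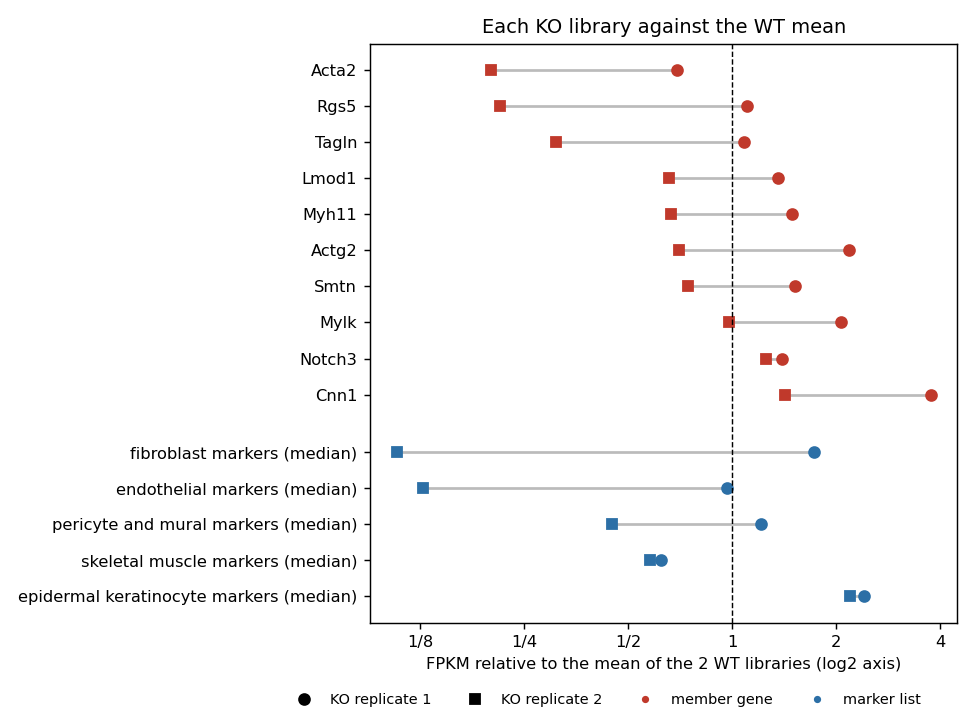
FPKM in each KO library divided by the mean of the 2 WT libraries (horizontal log2 axis) for the 10 genes and, as medians, for 5 lists of marker genes, with circles for KO replicate 1 and squares for KO replicate 2. In KO replicate 2 Acta2, Rgs5 and Tagln lie furthest to the left of the 10 genes, at 0.201, 0.213 and 0.31, and the fibroblast and endothelial medians lie further left still, at 0.107 and 0.128.

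Wider lists around the members gave 0 calls each, as any list had to, since 0 of all 13027 tested genes were called. Of 25 tested genes on a broad list of other contractile and thin filament genes, 20 were fitted lower in KO. An unadjusted p under 0.05 was reached by 5 as lower and 1 as higher, beside 6.22% and 10.9% of all tested genes. The largest differences were those of Sncg, the gene of gamma-synuclein, at 43.2 and 103 in WT, against 29.7 and 10.4 FPKM in KO, and of Synpo2, which encodes an actin-bundling protein of muscle, at 47.7 and 54.4 against 32.4 and 12.1 FPKM. Fat cells express Sncg too, and the 9 dermal adipocyte markers summed to 3920 and 10300 in WT, against 4600 and 410 FPKM in KO, none of them at 0. Macrophage markers stood at a median of 0.454 and 0.0463 times the WT mean in the KO libraries. The part of either list in these values was not tested. Ldb3, Pdlim3 and Pdlim7, which anchor filaments at the Z-discs of striated muscle, had log2 fold changes of -0.86, -0.85 and -0.91, beside the skeletal muscle markers described above. These 5 genes were those with an unadjusted p under 0.05 as lower. The gene that was higher was Actn1, of alpha-actinin, named after its values were seen, at 14.6 and 11.2 in WT, against 23.9 and 21.0 FPKM in KO. Of 13 tested myosin genes and their regulators, a list that holds Myh11 and Mylk, 9 were fitted lower and 0 had an unadjusted p under 0.05.

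Of 14 tested regulators of the smooth muscle genes, 9 were fitted lower, and 2 genes, Klf4 and Tead3, had an unadjusted p under 0.05, both as higher, beside 10.9% of all tested genes. Klf4, a factor that represses smooth muscle genes and is also strongly expressed in the epidermis, stood at 41.2 and 23.9 in WT, against 63.0 and 58.0 FPKM in KO. Tead3, of the family that binds the MCAT letters shown above, stood at 16.1 and 11.1 in WT, against 25.4 and 25.2 FPKM in KO. The list's remaining gene was Myocd, named here after its values were seen. This gene of the smooth muscle cofactor myocardin was at most 0.0606 FPKM and listed at 0 in WT replicate 2, too low to compare.

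Among 20 tested pericyte and mural markers other than the members, 15 were, like Rgs5 and unlike Notch3, lowest in KO replicate 2, beside 33.3% of all tested genes. Of these 20, 14 were fitted lower and 6 higher, with medians of 1.21 times the WT mean in KO replicate 1 and 0.45 in KO replicate 2. Vtn, Kcnj8 and Higd1b, which mark pericytes, stood at 0.432, 0.687 and 0.449 FPKM in KO replicate 2 and between 2.46 and 6.37 FPKM in the other libraries. Foxc1 and Rgs4 ran the other way. Foxc1 stood at 1.45 and 1.03 in WT, against 3.98 and 16.8 FPKM in KO. Rgs4, a relative of Rgs5, stood at 3.25 and 2.25 in WT, against 3.43 and 12.6 FPKM in KO. Beside 6.22% and 10.9% of all tested genes, the list had 0 genes with an unadjusted p under 0.05 as lower and 2 of 20 as higher, Foxc1 and Ednra, an endothelin receptor gene named after its values were seen, at 2.08 and 2.51 in WT, against 4.33 and 3.91 FPKM in KO.

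The other genes of the Notch pathway differed among themselves in direction. Of 17 other tested Notch pathway genes, 5 had an unadjusted p under 0.05 as higher and 1 as lower, beside 10.9% and 6.22% of all tested genes, and 8 of the 17 were above both WT libraries in both KO libraries, beside 35.3%. Jag1, a ligand of Notch receptors, stood at 5.14 and 4.58 in WT, against 15.3 and 20.7 FPKM in KO (log2 fold change 1.68 ± 0.26 SE, limma adjusted p = 0.248). Nrarp, a feedback target, stood at 15.4 and 7.49 in WT, against 46.0 and 65.3 FPKM in KO. Hes1, a classical target, stood at 17.6 and 8.53 in WT, against 31.4 and 45.0 FPKM in KO. Other targets, named after their values were seen, did not share this. Hey1 overlapped between the groups, and Heyl stood at 2.90 and 2.15 in WT, against 2.33 and 0.502 FPKM in KO. Mfng, which encodes an enzyme that modifies Notch receptors, stood at 10.2 and 25.2 in WT, against 12.9 and 3.99 FPKM in KO. The ligands Dll1 and Jag2 and the receptor Notch1 were also above both WT libraries in both KO libraries, with log2 fold changes of 0.85, 0.61 and 0.85. The endothelial members of the family went the other way in KO replicate 2, where the ligand Dll4 stood at 0.403 FPKM and the receptor Notch4 at 0.462 FPKM, the lowest of their 4 libraries. The gene with an unadjusted p under 0.05 as lower was Rbpj, the DNA-binding factor of the pathway, named after its values were seen, at 18.1 and 13.9 in WT, against 10.8 and 7.79 FPKM in KO. The receptor Notch2 stood at 6.16 and 6.61 in WT, against 5.98 and 6.50 FPKM in KO. Epidermis expresses Notch1, Jag1 and Jag2 as well, and 9 of the 10 keratinocyte markers were fitted higher in KO, 7 of them with an unadjusted p under 0.05. Their part in the Notch pathway values, those of Notch3 included, was not tested.

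**Figure D5:**
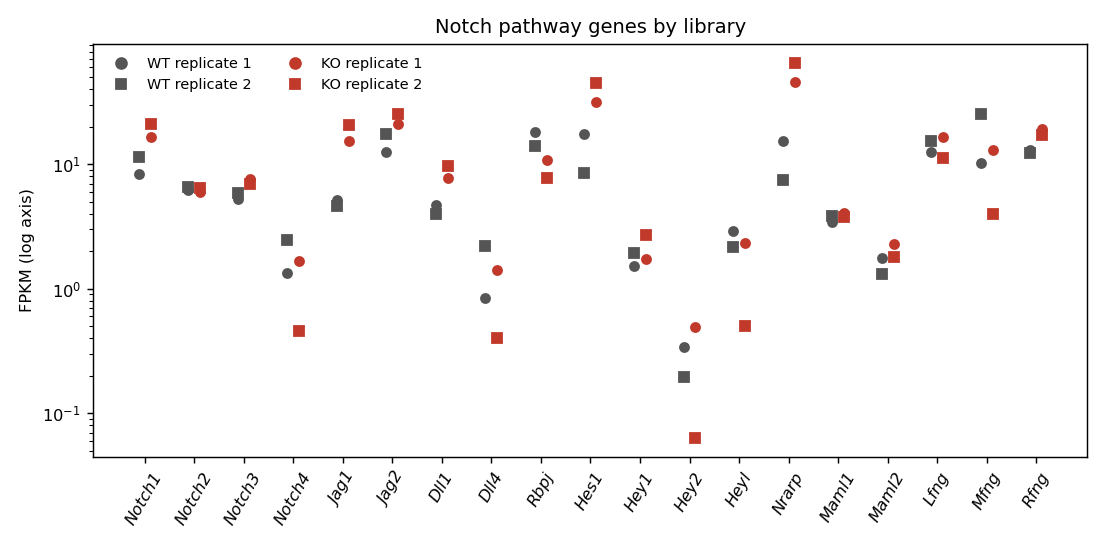
FPKM (vertical log axis) of Notch3 and 18 other Notch pathway genes in the 2 WT libraries (grey) and 2 KO libraries (red), with circles for replicate 1 and squares for replicate 2. Jag1, Nrarp and Hes1 lie higher in both KO libraries, whereas Dll4 and Notch4 are lowest in KO replicate 2.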

How the data were processed

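Skin RNA after BLM treatment was compared between 2 WT and 2 GSDMD KO libraries, grouped by their labels. According to the methods and the submitters' processing notes, the authors used HISAT2 version 2.0.1, StringTie version 2.0.6 and mm9, and named featureCounts for read counts and DESeq2 for testing. The deposited table holds FPKM values, since 99.993% of values above 0 are not whole numbers, so no count model was used here. Values were taken as log2(FPKM + 1) without further scaling. The 13027 genes that reached 1 FPKM in 2 or more libraries entered limma 3.58.1 in R 4.3.3 with a mean-variance trend and Benjamini-Hochberg adjustment. A check on simulated data required only that fitted directions be right and set no requirement on calls. Calls needed a log2 fold change beyond 1 in size with an adjusted p under 0.05. Fold changes on this scale understate those of low genes. Depth was estimated from the FPKM steps of 1966 single-transcript genes of 2000 bases or more and is approximate. Gene models were GENCODE for mm9. The RefSeq promoter table is of GRCm38.p6, and its sequences were placed in mm9 by exact match. Tables and figures were made with Python 3.11.15, pandas 2.3.3 and matplotlib 3.10.9. The members and gene lists were chosen with earlier results of these data known. Of each list the text names at most the 5 genes with the largest and the 2 with the smallest absolute log2 fold change, any actin, and any Notch ligand or receptor, with exceptions marked. Alternatives were other scalings, pseudocounts of 0.1 and 0.5, other filters, no trend, a replicate block and leaving out each library.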

Additional observations from a re-analysis of the deposited data

How the results depend on the processing

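The count of genes called was 0 in the main analysis and under every alternative other than leaving out a library, where it ranged from 0 to 2058. It was 43 without KO replicate 2, with 28 higher and 15 lower, and 2058 without KO replicate 1, with 859 higher and 1199 lower. The count of members called ranged from 0 to 3 in the same way. Leaving out each library gave log2 fold changes of -1.62 to 0.124 for Tagln, -2.03 to 0.138 for Rgs5, -0.478 to 0.38 for Lmod1, -0.448 to 0.479 for Myh11, -0.319 to 0.878 for Actg2, -0.0208 to 0.855 for Mylk and -0.39 to 0.576 for Smtn. Lmod1 was at 0.0642 without WT replicate 1. Myh11 and Smtn were near 0 and turned negative at -0.0818 and -0.0209 with median-ratio scaling, -0.111 and -0.0577 with upper-quartile scaling, and -0.0997 and -0.044 with trimmed-mean scaling, which gave 6 members lower and 4 higher. These scalings moved the median of all tested genes from 0.11 to 0.01, -0.03 and -0.01. Myh11 was also at -0.00168 with a pseudocount of 0.1. The mean log2 member level, KO minus WT, was -0.114, and 0.621 and 0.944 relative to the fibroblast and endothelial markers, where the pooled SD between libraries was 0.579, 1.11 and 0.616 on the 3 scales. Added after the data had been seen, leaving out KO replicate 1 gave -0.692, 1.69 and 1.51, and leaving out KO replicate 2 gave 0.465, -0.449 and 0.377. With the replicate block 0 genes and 0 members were called, and the smallest adjusted p of a member was 0.184, for Acta2. Same-numbered libraries share only a number, and their deviations correlated at -0.2 across 13027 genes. A crossed block, added after the data had been seen, also called 0 members (smallest adjusted p 0.202). Under every alternative run, Acta2 stayed below 0 and Cnn1 and Notch3 above 0. Depth limits Actg2 and Cnn1 most, and no counting-error interval was derived because the depth is an estimate.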

Other observations

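The genes whose profile over the 4 libraries was most like the mean of the 10 members were Fzd9, 2200002D01Rik, P3h4, Pmepa1, Fam43a, Csrp2, 6430548M08Rik, Ddah2, Arl4d and Atxn2l. They were ranked among 8752 other genes with a mean of at least 5 FPKM by the root mean square difference of centred log2 values over 4 libraries, which ran from 0.048 for Fzd9 to 0.11 for Atxn2l. The mean centred profile of the members was 0.04 and 0.08 in the WT libraries, 0.52 in KO replicate 1 and -0.64 in KO replicate 2. Fzd9, a receptor for Wnt ligands, stood at 6.04 and 5.95 in WT, against 8.87 and 3.67 FPKM in KO. Csrp2, a LIM protein of smooth muscle that was also on the list of regulators, stood at 21.7 and 22.8 in WT, against 28.6 and 15.3 FPKM in KO. With 4 libraries such likeness is a description of these libraries.

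Among matrix genes linked to myofibroblasts, 5 of 11 tested were fitted lower in KO and 6 higher. Fn1, which encodes fibronectin, stood at 91.5 and 84.9 in WT, against 20.6 and 1.09 FPKM in KO (log2 fold change -3.73 ± 1.08 SE, limma adjusted p = 0.248). Postn, which encodes periostin, stood at 58.6 and 30.9 in WT, against 106 and 175 FPKM in KO (log2 fold change 1.66 ± 0.42 SE, limma adjusted p = 0.248). In KO replicate 2 the higher Postn stood beside lower fibroblast markers, of which Col1a1 was at 2.34 FPKM there and between 33.2 and 59.8 FPKM in the other libraries.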
